A study of Saccharomyces cerevisiae with 12 samples.

Results

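The genes described here encode the nuclear subunits of the mitochondrial respiratory chain and of the ATP synthase of budding yeast, *Saccharomyces cerevisiae*. They were chosen by gene symbol, 38 genes in all, and grouped by the complex that their products form. Of these, 35 were measured, each by 1 of the 6024 elements of the deposited table. The other 3, *COX12*, *ATP1*, and *ATP18*, had no element under their symbol and were not analysed here. The same was true of all 7 mitochondrially encoded subunits, so the values concern nuclear transcripts only.

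The study asked which genes respond to stress in the endoplasmic reticulum (ER), and which part of that response needs the sensor kinase Ire1, the transcription factor Gcn4, or the kinase Gcn2. WT cells and cells of 3 strains that each lacked 1 of these genes, written Δ*ire1*, Δ*gcn2*, and Δ*gcn4*, were treated for 30 min with 2 mM DTT, a reducing agent that disturbs protein folding in the ER. RNA of treated cells was compared with RNA of untreated cells of the same strain on two-color spotted arrays, 3 arrays per strain and 12 in all. WT was a *MATa* haploid with mutations in *URA3*, *LEU2*, *HIS3*, *TRP1*, *ADE2*, and *CAN1*. The deletion strains shared these alleles, except that *TRP1* replaced *IRE1*, and that a *his5+* marker replaced *GCN4* or *GCN2*. All cultures were grown in YPD, a rich medium with glucose, at pH 5.4 to midlog phase (OD 0.5). All values below are log2 ratios of DTT-treated to untreated cells, and values below 0 mean less mRNA in treated cells on the scale of the deposited values. A difference between strains is a difference of such ratios. It says nothing about the level before treatment.

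In the respiratory chain, dehydrogenases pass electrons to ubiquinone, complex III passes them to cytochrome *c*, and complex IV passes them to oxygen. The ATP synthase uses the proton gradient that complexes III and IV build. Budding yeast has no proton-pumping complex I and oxidizes NADH with small enzymes on either face of the inner membrane. In this species the nuclear genes of the chain are known to be repressed by glucose and activated by the Hap2/3/4/5 complex and, with heme, by Hap1.

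Treatment induced the known targets of the unfolded protein response. The log2 ratio of *KAR2*, the ER chaperone BiP, was 1.79, 1.90, and 2.20 on the WT arrays, 0.92, 0.59, and 1.05 on the Δ*ire1* arrays, 1.73, 1.55, and 1.79 on the Δ*gcn4* arrays, and 1.83, 1.82, and 1.82 on the Δ*gcn2* arrays. *SIL1*, a nucleotide exchange factor of BiP, averaged 2.89 ± 0.08 for WT, 0.23 ± 0.31 for Δ*ire1*, 1.90 ± 0.27 for Δ*gcn4*, and 2.10 ± 0.16 for Δ*gcn2*. *ERO1*, the ER thiol oxidase, averaged 1.96 ± 0.09 for WT, 0.37 ± 0.14 for Δ*ire1*, 1.10 ± 0.12 for Δ*gcn4*, and 1.30 ± 0.09 for Δ*gcn2*. Both genes were below WT in each deletion strain, *SIL1* by 0.99 and 0.79 and *ERO1* by 0.85 and 0.65 in Δ*gcn4* and Δ*gcn2* (adjusted p = 0.00356, 0.00774, 0.00136, and 0.00486). The ratios cannot check a deletion, since both channels of an array hold the same strain, and *IRE1* has no element under its symbol. The median over all elements was −0.15 for WT, −0.14 for Δ*ire1*, −0.16 for Δ*gcn4*, and −0.11 for Δ*gcn2*. Centering each array on its own median raised the ratios of the members by that amount. Of all elements that passed the test in WT, 68.0% were lower as deposited and 50.7% after centering. These shares were, for Δ*ire1*, 74.5% and 51.4%, for Δ*gcn4* 71.0% and 50.8%, and for Δ*gcn2* 60.0% and 49.3%.

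In WT cells, the mRNAs of the respiratory chain and the ATP synthase fell together upon DTT treatment. Of the 35 members, 34 were lower at an adjusted p under 0.05 (limma's moderated test, Benjamini-Hochberg over all 6024 elements) and none was higher, whereas 39.0% of all elements were lower and 18.4% were higher. The remaining member was *COX5B*. In all 4 strains 28 of the 35 were lower, as were 19.3% of all elements. All 35 were below 0 on each of the 3 WT arrays, and 30 had a mean of −1 or less, against 6.47% of all elements. The median of the members was −1.36, a 2.58-fold fall. On the single WT arrays it was −1.37, −1.47, and −1.43. Ranked among all elements, 12 of the 35 were in the lowest 1%, and 32 in the lowest 10%.

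**Figure D1:**
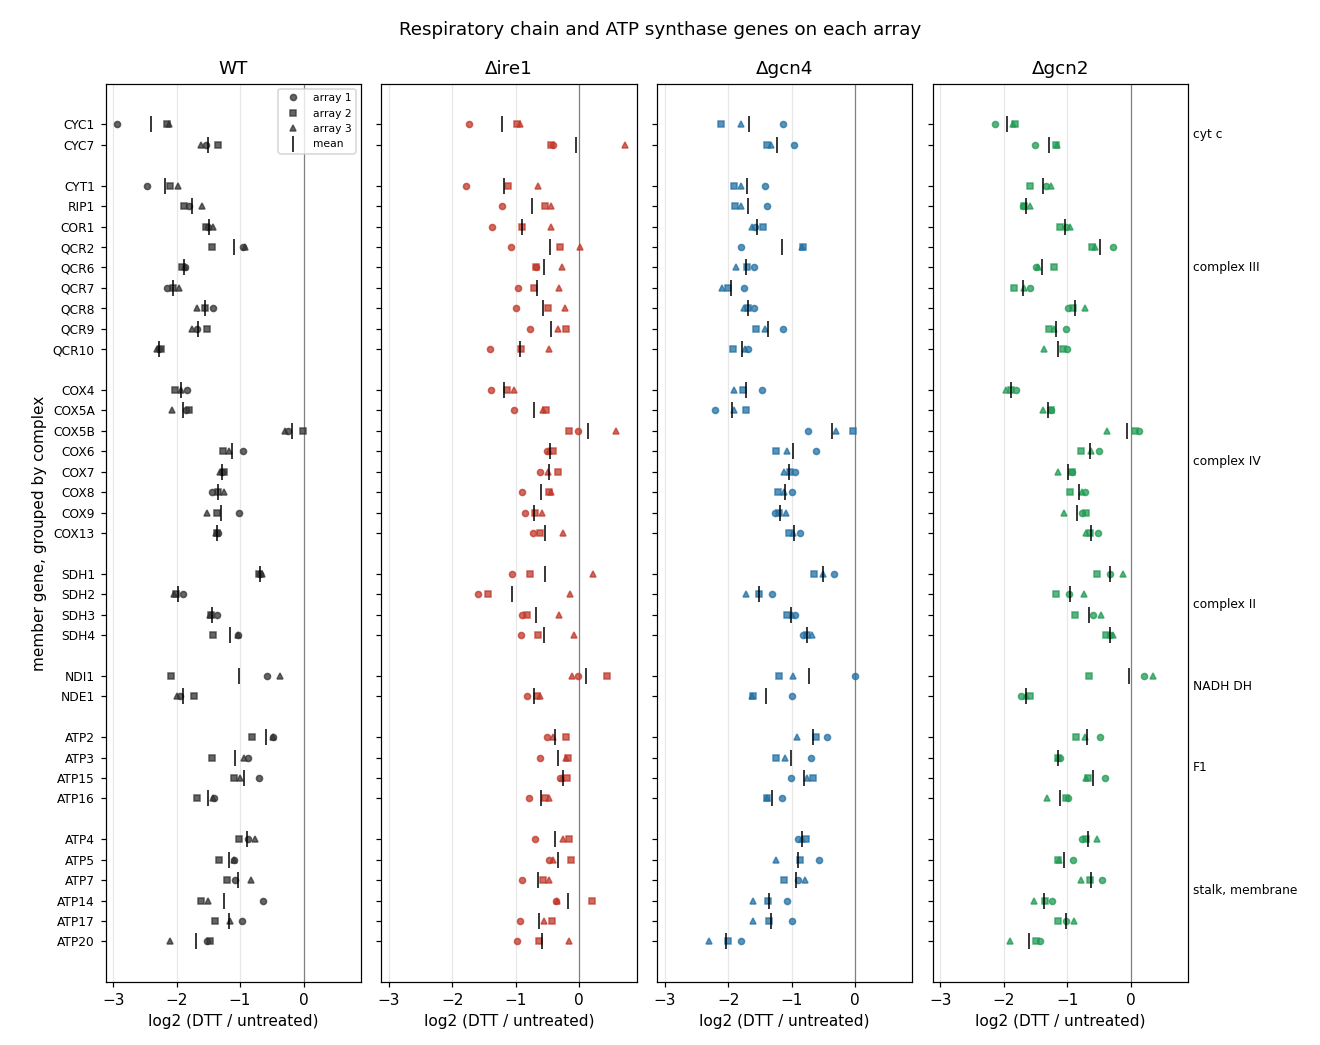
Log2 ratio (DTT-treated over untreated, x axis) of each of the 35 measured genes (rows, grouped by complex) on the 3 arrays of each strain (symbols), with the mean of the 3 arrays as a vertical tick. In WT all points lie below 0, with *COX5B* nearest to 0, and in Δ*ire1* most points lie closer to 0 and spread more.

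By the medians of the complexes in WT, the fall was deepest for cytochrome *c* and complex III and shallowest for the ATP synthase. In WT the median over the genes of a complex was −1.96 for cytochrome *c*, −1.76 for complex III, −1.33 for complex IV, −1.30 for complex II, −1.45 for the NADH dehydrogenases, −1.01 for the F1 part of the ATP synthase, and −1.18 for its stalk and membrane part. On the single arrays, the median of the 9 genes of complex III was −1.80, −1.89, and −1.76, and that of the 10 measured genes of the ATP synthase was −0.92, −1.37, and −1.05. All WT arrays thus had a lower median for complex III than any had for the ATP synthase, a difference that was not tested.

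**Figure D2:**
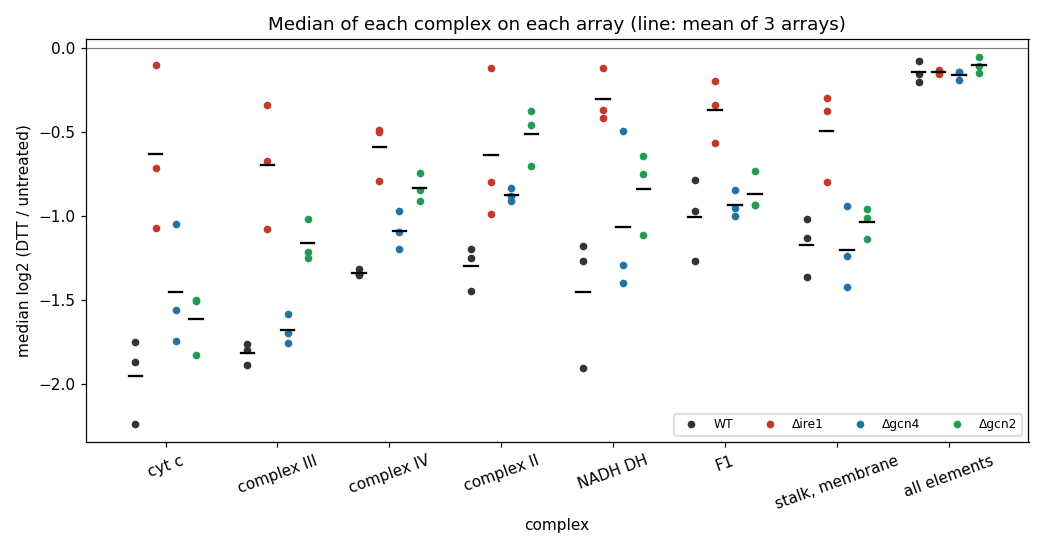
Median log2 ratio (y axis) over the genes of each complex on each array (points, colored by strain), with the mean of 3 arrays as a line, and the median of all 6024 elements at the right. For complex III the WT arrays lie between −1.89 and −1.76 and the Δ*ire1* arrays between −1.08 and −0.34.

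Cytochrome *c*, the mobile carrier between complexes III and IV, is made in an aerobic form from *CYC1* and in a minor form, expressed more under low oxygen, from *CYC7*. *CYC1* had the lowest WT mean of all members, a 5.31-fold fall. Its log2 ratios were −2.94, −2.16, and −2.13 on the WT arrays, −1.74, −0.99, and −0.93 on the Δ*ire1* arrays, −1.13, −2.11, and −1.79 on the Δ*gcn4* arrays, and −2.15, −1.82, and −1.86 on the Δ*gcn2* arrays. Those of *CYC7* were −1.54, −1.35, and −1.62 on the WT arrays, −0.41, −0.45, and 0.72 on the Δ*ire1* arrays, −0.96, −1.39, and −1.33 on the Δ*gcn4* arrays, and −1.51, −1.18, and −1.16 on the Δ*gcn2* arrays. Both genes were higher in Δ*ire1* than in WT on every array. The difference was 1.19 (SE 0.27, adjusted p = 0.00577) for *CYC1* and 1.46 (SE 0.25, adjusted p = 0.000841) for *CYC7*, the largest of all members. In Δ*ire1* the mean of *CYC7* was −0.04 ± 0.66 (SD, n = 3), with 1 array above 0, and it did not pass the test against no change (adjusted p = 0.855). Without that array, replicate 3, the fall of *CYC7* in Δ*ire1* passed (adjusted p = 0.0147). In Δ*gcn4* and Δ*gcn2* both genes fell, and their differences from WT did not pass.

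Complex III, the cytochrome *bc*1 complex, carries electrons from ubiquinol to cytochrome *c*. Of its catalytic subunits, *CYT1* encodes cytochrome *c*1 and *RIP1* the Rieske iron-sulfur protein. *COR1* and *QCR2* encode the core proteins, and *QCR6* to *QCR10* small subunits without a redox center. All 9 genes fell in WT, with means from −2.28 for *QCR10* to −1.10 for *QCR2*. The ratios of *QCR10* were −2.27, −2.25, and −2.32 on the WT arrays, −1.41, −0.92, and −0.47 on the Δ*ire1* arrays, −1.68, −1.92, and −1.74 on the Δ*gcn4* arrays, and −1.00, −1.06, and −1.36 on the Δ*gcn2* arrays. The WT arrays lay close together, and every array of each deletion strain lay above them. *QCR2* was at −0.95, −1.44, and −0.92 on the WT arrays, −1.08, −0.30, and 0.01 on the Δ*ire1* arrays, −1.79, −0.82, and −0.84 on the Δ*gcn4* arrays, and −0.27, −0.61, and −0.57 on the Δ*gcn2* arrays. It was the only gene of the complex that did not pass in Δ*ire1* (adjusted p = 0.0651) or in the difference of Δ*ire1* from WT (0.64, SE 0.28, adjusted p = 0.106). Its fall in Δ*gcn2* was lost without any 1 of the Δ*gcn2* arrays (adjusted p from 0.0547 to 0.166).

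After *CYC7*, the largest differences between Δ*ire1* and WT were those of *QCR7*, *QCR10*, *QCR6*, and *QCR9*, small subunits of complex III. *QCR7* was at −2.15, −2.06, and −1.97 on the WT arrays, −0.96, −0.71, and −0.31 on the Δ*ire1* arrays, −1.75, −2.00, and −2.10 on the Δ*gcn4* arrays, and −1.59, −1.83, and −1.69 on the Δ*gcn2* arrays. *QCR6* was at −1.87, −1.92, and −1.87 on the WT arrays, −0.69, −0.68, and −0.28 on the Δ*ire1* arrays, −1.58, −1.70, and −1.87 on the Δ*gcn4* arrays, and −1.50, −1.21, and −1.47 on the Δ*gcn2* arrays. *QCR9* was at −1.68, −1.53, and −1.76 on the WT arrays, −0.78, −0.21, and −0.34 on the Δ*ire1* arrays, −1.14, −1.56, and −1.41 on the Δ*gcn4* arrays, and −1.02, −1.29, and −1.21 on the Δ*gcn2* arrays. For each of the 3 genes, all Δ*ire1* arrays were above all WT arrays. The differences were 1.40 (SE 0.16, adjusted p = 4.1e-05) for *QCR7*, 1.35 (SE 0.19, adjusted p = 0.000182) for *QCR10*, 1.34 (SE 0.14, adjusted p = 2.12e-05) for *QCR6*, and 1.22 (SE 0.16, adjusted p = 0.000122) for *QCR9*. In the other deletion strains, *QCR8* separated Δ*gcn4* from Δ*gcn2*. Its ratios were −1.43, −1.56, and −1.68 on the WT arrays, −0.99, −0.50, and −0.22 on the Δ*ire1* arrays, −1.60, −1.69, and −1.76 on the Δ*gcn4* arrays, and −0.98, −0.91, and −0.72 on the Δ*gcn2* arrays. The Δ*gcn4* arrays overlapped with those of WT and reached lower, while the Δ*gcn2* arrays were all above both.

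*CYT1* was at −2.47, −2.10, and −1.98 on the WT arrays, −1.78, −1.12, and −0.65 on the Δ*ire1* arrays, −1.42, −1.91, and −1.79 on the Δ*gcn4* arrays, and −1.33, −1.58, and −1.25 on the Δ*gcn2* arrays. In all 3 deletion strains each array was above each WT array, and the difference passed in Δ*ire1* and Δ*gcn2*, not in Δ*gcn4*. *RIP1* averaged −1.76 ± 0.14 for WT, −0.74 ± 0.42 for Δ*ire1*, −1.69 ± 0.26 for Δ*gcn4*, and −1.66 ± 0.06 for Δ*gcn2*. *COR1* averaged −1.49 ± 0.06 for WT, −0.91 ± 0.46 for Δ*ire1*, −1.55 ± 0.09 for Δ*gcn4*, and −1.03 ± 0.08 for Δ*gcn2*. *RIP1* thus differed from WT by 1.03 in Δ*ire1* and by 0.11 in Δ*gcn2*, of which the first passed. For *COR1* the differences were 0.58 (SE 0.18, adjusted p = 0.0311) and 0.46 (SE 0.18, adjusted p = 0.0909).

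Complex IV, cytochrome *c* oxidase, reduces oxygen. Its catalytic core is mitochondrially encoded, and the nuclear subunits surround it. *COX4* fell deepest in WT and fell in all strains. It was at −1.83, −2.03, and −1.94 on the WT arrays, −1.39, −1.13, and −1.03 on the Δ*ire1* arrays, −1.47, −1.77, and −1.91 on the Δ*gcn4* arrays, and −1.81, −1.89, and −1.96 on the Δ*gcn2* arrays. The Δ*gcn2* values overlapped with WT, and the Δ*ire1* values were above both, by 0.75 (SE 0.15, adjusted p = 0.00225) over WT. *COX6* averaged −1.13 ± 0.16 for WT, −0.47 ± 0.05 for Δ*ire1*, −0.97 ± 0.32 for Δ*gcn4*, and −0.63 ± 0.14 for Δ*gcn2*, and *COX7* averaged −1.29 ± 0.03 for WT, −0.48 ± 0.14 for Δ*ire1*, −1.03 ± 0.09 for Δ*gcn4*, and −1.00 ± 0.13 for Δ*gcn2*. *COX8* averaged −1.35 ± 0.09 for WT, −0.61 ± 0.26 for Δ*ire1*, −1.10 ± 0.11 for Δ*gcn4*, and −0.82 ± 0.13 for Δ*gcn2*, and *COX9* averaged −1.30 ± 0.26 for WT, −0.71 ± 0.14 for Δ*ire1*, −1.18 ± 0.09 for Δ*gcn4*, and −0.85 ± 0.19 for Δ*gcn2*. All 4 fell in every strain, and all 4 were higher in Δ*ire1* than in WT, by 0.59 to 0.80. *COX13*, another nuclear subunit, was at −1.35, −1.36, and −1.38 on the WT arrays, −0.73, −0.62, and −0.26 on the Δ*ire1* arrays, −0.87, −1.03, and −0.98 on the Δ*gcn4* arrays, and −0.52, −0.65, and −0.71 on the Δ*gcn2* arrays, so that all mutant arrays lay above WT, with differences that passed in Δ*ire1* and Δ*gcn2*.

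Subunit 5 of complex IV is made from *COX5A* in air and from *COX5B* under low oxygen. The aerobic gene *COX5A* was at −1.86, −1.80, and −2.07 on the WT arrays, −1.03, −0.52, and −0.57 on the Δ*ire1* arrays, −2.21, −1.72, and −1.91 on the Δ*gcn4* arrays, and −1.26, −1.26, and −1.38 on the Δ*gcn2* arrays. *COX5B* was at −0.24, −0.01, and −0.29 on the WT arrays, −0.02, −0.15, and 0.57 on the Δ*ire1* arrays, −0.74, −0.04, and −0.29 on the Δ*gcn4* arrays, and 0.13, 0.07, and −0.37 on the Δ*gcn2* arrays. *COX5A* was lower than *COX5B* on all 12 arrays, and it fell in every strain, while *COX5B* passed in none (adjusted p = 0.322, 0.489, 0.0546, and 0.762 in the order above). The fall of *COX5B* in Δ*gcn4* did pass with only the Δ*gcn4* arrays (0.0497). It also passed without Δ*ire1* replicate 3, Δ*gcn4* replicate 2, or Δ*gcn2* replicate 3 (0.0267, 0.0255, and 0.0497). In cytochrome *c* the same kind of pair behaved otherwise, since *CYC7* fell with *CYC1* in WT, Δ*gcn4*, and Δ*gcn2*. The genes of each pair are similar in sequence, and hybridization of RNA from one to the element of the other was not tested.

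Complex II, succinate dehydrogenase, joins the tricarboxylic acid (TCA) cycle to the chain. *SDH1* encodes its flavoprotein, *SDH2* its iron-sulfur subunit, and *SDH3* and *SDH4* its membrane anchor. *SDH2* was at −1.90, −2.01, and −2.04 on the WT arrays, −1.60, −1.44, and −0.15 on the Δ*ire1* arrays, −1.31, −1.51, and −1.72 on the Δ*gcn4* arrays, and −0.97, −1.18, and −0.73 on the Δ*gcn2* arrays. *SDH1* was at −0.68, −0.70, and −0.66 on the WT arrays, −1.06, −0.77, and 0.22 on the Δ*ire1* arrays, −0.33, −0.65, and −0.51 on the Δ*gcn4* arrays, and −0.32, −0.53, and −0.13 on the Δ*gcn2* arrays. On the WT arrays *SDH2* was lower than *SDH1* by more than 1, although both encode catalytic subunits. In Δ*ire1* both genes differed widely between arrays, with replicate 3 highest, and the fall of *SDH1* was lost without replicate 1 or 2 (adjusted p = 0.239 and 0.123).

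The anchor subunits fell to an intermediate degree. *SDH3* was at −1.37, −1.47, and −1.48 on the WT arrays, −0.91, −0.82, and −0.33 on the Δ*ire1* arrays, −0.95, −1.07, and −0.99 on the Δ*gcn4* arrays, and −0.59, −0.88, and −0.47 on the Δ*gcn2* arrays. *SDH4* was at −1.03, −1.43, and −1.03 on the WT arrays, −0.92, −0.65, and −0.09 on the Δ*ire1* arrays, −0.82, −0.76, and −0.68 on the Δ*gcn4* arrays, and −0.33, −0.39, and −0.28 on the Δ*gcn2* arrays. In this complex the Δ*gcn2* arrays, like the Δ*gcn4* arrays, were above all WT arrays for each of the 4 genes. That was so for 24.5% (Δ*gcn2*) and 10.2% (Δ*gcn4*) of all elements, and no difference of Δ*gcn4* from WT passed here. The difference of Δ*gcn2* from WT passed for *SDH2* (1.02, SE 0.28, adjusted p = 0.0203), *SDH4* (0.83, SE 0.18, adjusted p = 0.00802), and *SDH3* (0.79, SE 0.16, adjusted p = 0.00506). For *SDH1* it was 0.35 (SE 0.24, adjusted p = 0.324). Against no change, the fall of *SDH4* in Δ*gcn2* was lost without any 1 of the Δ*gcn2* arrays (adjusted p from 0.0806 to 0.138), and that of *SDH1* in Δ*gcn4* without Δ*gcn4* replicate 2 or 3 (0.117 and 0.0775).

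Of the NADH dehydrogenases, *NDI1* encodes the enzyme that faces the matrix and *NDE1* one that faces the intermembrane space. *NDE1* was at −1.96, −1.73, and −2.00 on the WT arrays, −0.83, −0.67, and −0.63 on the Δ*ire1* arrays, −1.00, −1.61, and −1.62 on the Δ*gcn4* arrays, and −1.73, −1.58, and −1.65 on the Δ*gcn2* arrays. *NDI1* was at −0.58, −2.09, and −0.36 on the WT arrays, −0.01, 0.43, and −0.12 on the Δ*ire1* arrays, 0.00, −1.20, and −0.98 on the Δ*gcn4* arrays, and 0.22, −0.65, and 0.36 on the Δ*gcn2* arrays. *NDE1* fell in all strains, less in Δ*ire1* than in WT by 1.19 (SE 0.16, adjusted p = 0.00014). *NDI1* had the largest SD between the arrays of WT of all members, 0.94. Its fall in WT passed with all arrays (adjusted p = 0.00599) and did not without WT replicate 2 (adjusted p = 0.143). In Δ*gcn4* its fall did not pass without replicate 2 or replicate 3 (adjusted p = 0.255 and 0.184), nor with centered or scaled arrays (0.0875 and 0.0758).

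In the ATP synthase, F1 is the catalytic head. *ATP2* encodes its catalytic β subunit, and *ATP3*, *ATP15*, and *ATP16* encode the γ, ε, and δ subunits of the rotor. *ATP16* fell most. It was at −1.41, −1.67, and −1.43 on the WT arrays, −0.80, −0.54, and −0.48 on the Δ*ire1* arrays, −1.16, −1.38, and −1.39 on the Δ*gcn4* arrays, and −0.99, −1.01, and −1.32 on the Δ*gcn2* arrays. *ATP2* was at −0.49, −0.82, and −0.48 on the WT arrays, −0.51, −0.21, and −0.42 on the Δ*ire1* arrays, −0.45, −0.62, and −0.91 on the Δ*gcn4* arrays, and −0.48, −0.86, and −0.72 on the Δ*gcn2* arrays. *ATP2* had the smallest mean fall of the F1 genes in WT, and its ratios in the 4 strains overlapped. *ATP3* averaged −1.09 ± 0.31 for WT, −0.34 ± 0.25 for Δ*ire1*, −1.01 ± 0.29 for Δ*gcn4*, and −1.14 ± 0.02 for Δ*gcn2*, and *ATP15* averaged −0.93 ± 0.20 for WT, −0.25 ± 0.06 for Δ*ire1*, −0.81 ± 0.18 for Δ*gcn4*, and −0.60 ± 0.17 for Δ*gcn2*. The 3 rotor genes were higher in Δ*ire1* than in WT on every array, and none of the 4 F1 genes differed from WT at the threshold in Δ*gcn4* or Δ*gcn2*.

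The stalk and membrane part holds the head in place and conducts protons. *ATP4*, *ATP5*, *ATP7*, and *ATP14* encode subunits of the peripheral stalk, and *ATP17* and *ATP20* small membrane subunits, of which the latter takes part in dimers of the enzyme. *ATP20* was at −1.52, −1.47, and −2.10 on the WT arrays, −0.99, −0.64, and −0.15 on the Δ*ire1* arrays, −1.80, −2.01, and −2.30 on the Δ*gcn4* arrays, and −1.43, −1.50, and −1.90 on the Δ*gcn2* arrays. *ATP4*, with the mildest fall in WT, was at −0.88, −1.01, and −0.77 on the WT arrays, −0.70, −0.17, and −0.26 on the Δ*ire1* arrays, −0.89, −0.77, and −0.83 on the Δ*gcn4* arrays, and −0.76, −0.71, and −0.54 on the Δ*gcn2* arrays. *ATP20* had its lowest mean in Δ*gcn4*, and the Δ*gcn4* and WT arrays overlapped. The other 4 genes averaged between −1.26 and −1.04 in WT. *ATP5* averaged −1.18 ± 0.14 for WT, −0.34 ± 0.18 for Δ*ire1*, −0.89 ± 0.34 for Δ*gcn4*, and −1.06 ± 0.13 for Δ*gcn2*, and *ATP7* averaged −1.04 ± 0.19 for WT, −0.65 ± 0.22 for Δ*ire1*, −0.94 ± 0.17 for Δ*gcn4*, and −0.62 ± 0.17 for Δ*gcn2*. *ATP14* averaged −1.26 ± 0.53 for WT, −0.17 ± 0.32 for Δ*ire1*, −1.35 ± 0.26 for Δ*gcn4*, and −1.37 ± 0.15 for Δ*gcn2*, and *ATP17* averaged −1.18 ± 0.22 for WT, −0.64 ± 0.26 for Δ*ire1*, −1.32 ± 0.31 for Δ*gcn4*, and −1.02 ± 0.13 for Δ*gcn2*. In Δ*gcn4* and Δ*gcn2* all 6 genes fell, and none differed from WT at the threshold.

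In the absence of *IRE1* the members still fell, but less. In Δ*ire1* 29 of the 35 were lower and none was higher, against 35.6% and 12.2% of all elements. The 6 that did not pass were *CYC7*, *QCR2*, *COX5B*, *NDI1*, *ATP15*, and *ATP14*. With each array centered on its median, 5 of the 29 falls were lost, and 23.2% of all elements were lower. The 5 were those of *SDH1*, *ATP2*, *ATP3*, *ATP4*, and *ATP5* (limma, adjusted p from 0.0641 to 0.213). The median of the members was −0.57, a 1.49-fold fall, and 4 genes had a mean of −1 or less, against 30 in WT and 2.89% of all elements in Δ*ire1*. None of the 35 was among the lowest 1% of elements in Δ*ire1*, and 10 were among the lowest 10%.

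Tested directly, the ratio in Δ*ire1* was above that in WT for 29 of the 35 genes and below it for none, against 10.9% and 11.3% of all elements. The 6 others, *QCR2*, *COX5B*, *SDH1*, *NDI1*, *ATP2*, and *ATP7*, had positive differences too, from 0.14 to 1.11. That of *NDI1* (adjusted p = 0.0551) passed with centered arrays, with scaled arrays, with array weights, and with the replicate block on all 12 arrays (0.0444, 0.0461, 0.0302, and 0.0262). The median difference over the members was 0.83, and over all elements 0.03. For 30 members, all 3 Δ*ire1* arrays were above all 3 WT arrays, which was so for 18.7% of all elements. By complex, the median difference was 1.32 for cytochrome *c*, 1.03 for complex III, 0.74 for complex IV, 0.68 for complex II, 1.15 for the NADH dehydrogenases, and 0.72 for the ATP synthase.

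The 3 Δ*ire1* arrays differed among themselves in these genes. The median of the members was −0.90, −0.54, and −0.34 on replicates 1, 2, and 3. Replicate 1 gave the lowest of the 3 values for 32 of the 35 genes, and for 30.8% of all elements. The medians of all elements on these arrays were −0.13, −0.14, and −0.15. With replicate 1 left out, 30 members were above WT and 21 had fallen in Δ*ire1*, and with replicate 3 left out, 24 and 30. The falls lost without replicate 1 were those of *QCR9*, *SDH1*, *SDH4*, *ATP2*, *ATP3*, *ATP4*, *ATP5*, and *ATP20* (adjusted p from 0.0505 to 0.331). Those of *ATP3* and *ATP5* were also lost without replicates 2 and 3, respectively (0.0514 and 0.108). The scaled median absolute deviation of all log2 ratios was 0.413 to 0.474 on the Δ*ire1* arrays, 0.469 to 0.571 on those of WT, and 0.544 to 0.627 on those of Δ*gcn2*. With every array centered and scaled to 1 spread, 26 members were above WT. Over all fits that left out 1 array, 6 calls of the difference were lost at least once. *COX9* lost its call without WT replicate 3 (adjusted p = 0.0593), and *SDH4* without WT replicate 2 or Δ*ire1* replicate 3 (0.116 and 0.0925). *ATP4*, *SDH2*, *COR1*, and *ATP17* lost theirs without any of 4, 4, 5, and 8 arrays (adjusted p up to 0.0993, 0.0695, 0.109, and 0.156).

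**Figure D3:**
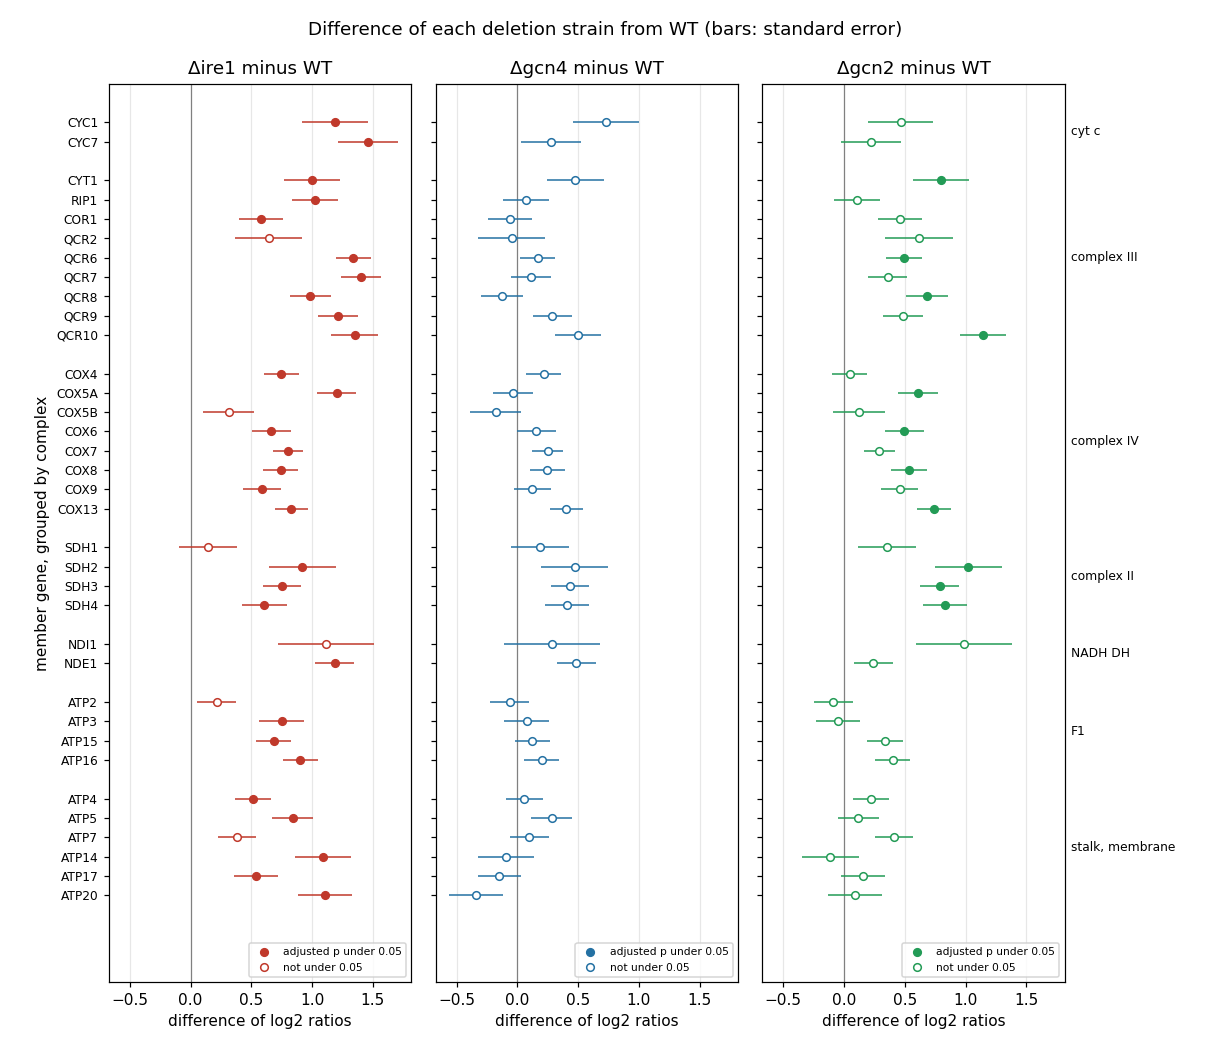
Difference of the log2 ratio in each deletion strain from that in WT (x axis, with its standard error as a bar) for the 35 genes (rows, grouped by complex), filled where the adjusted p is under 0.05. All 35 differences are positive in Δ*ire1*, 29 of them filled, none is filled in Δ*gcn4*, and 11 are filled in Δ*gcn2*, none of them in the ATP synthase.

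In the absence of *GCN4* the members fell in nearly all cases. No difference from WT passed, a share near that of all elements. In Δ*gcn4* 34 of the 35 members were lower and none was higher, against 38.7% and 15.8% of all elements. *COX5B* was again the exception (limma, adjusted p = 0.0546). The median of the members was −1.23, and on the single arrays −1.01, −1.36, and −1.33. No member differed from WT at the threshold in either direction (limma), against 0.863% of all elements above and 1.94% below WT. The median difference over the members was 0.17, and over all elements 0.01. Of the 35 differences 26 were positive and 9 negative, and of those of all 6024 elements 3060 were positive. At an unadjusted p under 0.05, 6 members differed, *CYC1*, *QCR10*, *COX13*, *SDH3*, *SDH4*, and *NDE1*, all with smaller falls in Δ*gcn4*, against 15.8% of all elements. The largest difference was that of *CYC1*, 0.73 (SE 0.27, adjusted p = 0.186). All 3 Δ*gcn4* arrays were above all WT arrays for 12 of the 35 members and for 10.2% of all elements. The 95% confidence intervals of the 35 differences reached from −0.81 to 1.30, and for 32 members they ended below 1.

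In the absence of *GCN2* the members fell, with a smaller fall in part of the electron transport genes. In Δ*gcn2* 32 of the 35 were lower and none was higher, against 37.8% and 25.2% of all elements. The 3 that did not pass were *COX5B*, *SDH1*, and *NDI1*. The median was −1.02, and on the single arrays −0.98, −1.06, and −1.06. The difference from WT passed for 11 members, all of them higher in Δ*gcn2*, against 10.9% of all elements above and 6.24% below WT. Of these, 4 belong to complex III (*CYT1*, *QCR6*, *QCR8*, and *QCR10*), 4 to complex IV (*COX5A*, *COX6*, *COX8*, and *COX13*), and 3 to complex II (*SDH2*, *SDH3*, and *SDH4*). The largest was that of *QCR10*, 1.14 (SE 0.19, adjusted p = 0.0018). All 3 Δ*gcn2* arrays were above all WT arrays for 22 members and for 24.5% of all elements.

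None of the 10 ATP synthase genes was among the 11. Their median difference from WT was 0.14 in Δ*gcn2*, from −0.11 for *ATP14* to 0.41 for *ATP7*, whereas it was 0.81 in complex II. That of the other 25 members was 0.49. Whether the ATP synthase differed from the other complexes in this respect was not tested. In Δ*ire1* the same 2 medians were 0.72 and 0.92. The comparisons of Δ*ire1*, Δ*gcn4*, and Δ*gcn2* with WT share the 3 WT arrays.

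Same-numbered arrays of WT and of Δ*gcn2* deviated from their strain means in the same direction. With the replicate number as a block, fitted to these 6 arrays, 24 members were above WT in place of 11, among them all 11 and 3 of the ATP synthase genes (*ATP7*, *ATP15*, and *ATP16*), and so were 30.5% of all elements. That fit has 2 residual degrees of freedom for each element and gave all elements the same spread. Single arrays decided several of the 11 calls. Counted over all 35 members, 6 passed without WT replicate 1 and 6 without WT replicate 2. Without Δ*gcn2* replicate 1, 2, or 3, 5, 7, and 4 members did. Of the 11, *CYT1*, *QCR6*, *COX5A*, *COX6*, *COX8*, and *SDH2* were lost without WT replicate 1, so that count includes a member outside the 11. *QCR10*, *COX13*, *SDH3*, and *SDH4* passed in all 12 fits that left out 1 array, whereas *COX6* lost its call in 9 of them (limma, adjusted p up to 0.144).

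Between the deletions of the 2 genes of one pathway, 2 members differed, a share near that of all elements. Gcn2 is the kinase through which amino acid starvation raises the translation of *GCN4* mRNA. *QCR8* was lower in Δ*gcn4* than in Δ*gcn2* by 0.81 (SE 0.17, adjusted p = 0.0167) on the log2 scale, and *COX5A* by 0.65 (SE 0.16, adjusted p = 0.0338), against 4.45% of all elements lower and 1.88% higher. *QCR8* lost its call without Δ*gcn4* replicate 2 or without Δ*gcn2* replicate 2 or 3 (adjusted p up to 0.0913). *COX5A* lost it without Δ*gcn4* replicate 1 or 3 or without any of the Δ*gcn2* arrays (up to 0.118). The median difference over the members was −0.30, and over all elements −0.06. Over all 4 strains, 29 of the 35 members differed among the strains in limma's F test, against 42.6% of all elements. For 30 members the highest of the 4 strain means was that of Δ*ire1*, and for 25 the lowest was that of WT.

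The genes around the chain changed in both directions, in shares near those of all elements. Besides the members, 98 genes were listed by function, the 7 mitochondrial ones among them, and 87 were measured. Of these 87, 40 were lower in WT and 16 were higher, with a median of −0.26, against 39.0% and 18.4% of all elements. In Δ*ire1* 39 were lower and 8 were higher, against 35.6% and 12.2% of all elements. The ratio in Δ*ire1* was above that in WT for 14 and below it for 12, against 10.9% and 11.3% of all elements. In Δ*gcn4* 1 gene, *CYB5*, lay above WT and 1, *HEM13*, lay below, against 0.863% and 1.94% of all elements. For Δ*gcn2* the numbers were 9 and 3, against 10.9% and 6.24%. The falls were most regular in the carriers of the mitochondrial membranes, where all 6 fell in WT with a median of −0.90. They fell in Δ*ire1* too, with a median of −0.76, and 1 of the 6, *AAC1*, differed from WT there (0.50, SE 0.17, adjusted p = 0.0483), a call that was lost without any 1 of 9 arrays (up to 0.140). The deepest fall in WT was that of *AAC1*, a minor ADP/ATP carrier, at −1.14 ± 0.16, followed by *PET9*, the major one, at −0.99 ± 0.04, and *POR1*, the outer membrane porin, at −0.90 ± 0.13. In the TCA cycle 8 of 11 genes fell and 1 rose in WT, against 39.0% and 18.4% of all elements. In Δ*ire1* 5 lay above WT (*CIT1*, *IDH1*, *KGD1*, *KGD2*, and *MDH1*) and 1, *LSC2*, lay below, against 10.9% and 11.3%. With 1 array left out, *KGD2* lost its call in 5 of 12 fits, *MDH1* in 4, and *LSC2* in 6 (adjusted p up to 0.125, 0.112, and 0.170). Aconitase (*ACO1*) fell by 1.22 and malate dehydrogenase (*MDH1*) fell by 0.79, while *LSC2*, a subunit of succinyl-CoA ligase, rose by 1.19.

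*INH1*, which encodes the inhibitor of the F1 ATPase, fell in all strains, as most subunits did. Its ratios were −1.33, −1.84, and −1.72 on the WT arrays, −0.95, −0.68, and 0.03 on the Δ*ire1* arrays, −1.62, −1.65, and −1.99 on the Δ*gcn4* arrays, and −1.22, −1.26, and −1.42 on the Δ*gcn2* arrays. It was higher in Δ*ire1* than in WT by 1.10 (SE 0.21, adjusted p = 0.00221). Its fall in Δ*ire1* was lost without replicate 1 or 2 (adjusted p = 0.141 and 0.0666). *STF2*, a factor assigned to the same inhibitor system, rose instead, with means of 1.18 ± 0.30 for WT, 0.55 ± 0.31 for Δ*ire1*, 1.01 ± 0.14 for Δ*gcn4*, and 1.13 ± 0.13 for Δ*gcn2*. *NDE2*, the second external NADH dehydrogenase, averaged −0.36 ± 0.29 for WT, 0.17 ± 0.13 for Δ*ire1*, −0.26 ± 0.04 for Δ*gcn4*, and −0.09 ± 0.16 for Δ*gcn2*.

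Assembly and translation factors of the complexes had a median nearer to 0 than the subunits. Of 37 measured, 16 fell in WT and 4 rose, with a median of −0.21, against 39.0% and 18.4% of all elements. The 3 lowest means in WT were that of *ATP23*, a protease and chaperone for the ATP synthase, at −1.27 ± 0.23, that of *CBP4*, for complex III, at −0.99 ± 0.09, and that of *CYC3*, the heme lyase of cytochrome *c*, at −0.93 ± 0.15. In ubiquinone synthesis 5 of 10 genes rose in WT and 2 fell, against 18.4% and 39.0% of all elements. With 1 array left out, the rises of *COQ3* and *COQ5* in WT were lost in 5 and 2 of 12 fits (limma, adjusted p up to 0.280 and 0.120). *COQ6*, a monooxygenase of that pathway, was at 1.14, 1.10, and 1.25 on the WT arrays, −0.15, −0.09, and 0.26 on the Δ*ire1* arrays, 1.18, 1.33, and 1.47 on the Δ*gcn4* arrays, and 1.59, 1.53, and 1.72 on the Δ*gcn2* arrays. It rose in WT, Δ*gcn4*, and Δ*gcn2* and had a mean of 0.00 in Δ*ire1* (adjusted p = 0.977), with a difference from WT of −1.16 (SE 0.14, adjusted p = 5.54e-05). *COQ9* fell by 0.92 and *COQ4* rose by 0.87 in WT. Of 4 genes listed as other donors of electrons, 1 fell, *CYB5*, at −1.67 ± 0.28. Its product, cytochrome *b*5, is known for electron transfer in lipid synthesis at the ER.

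**Figure D4:**
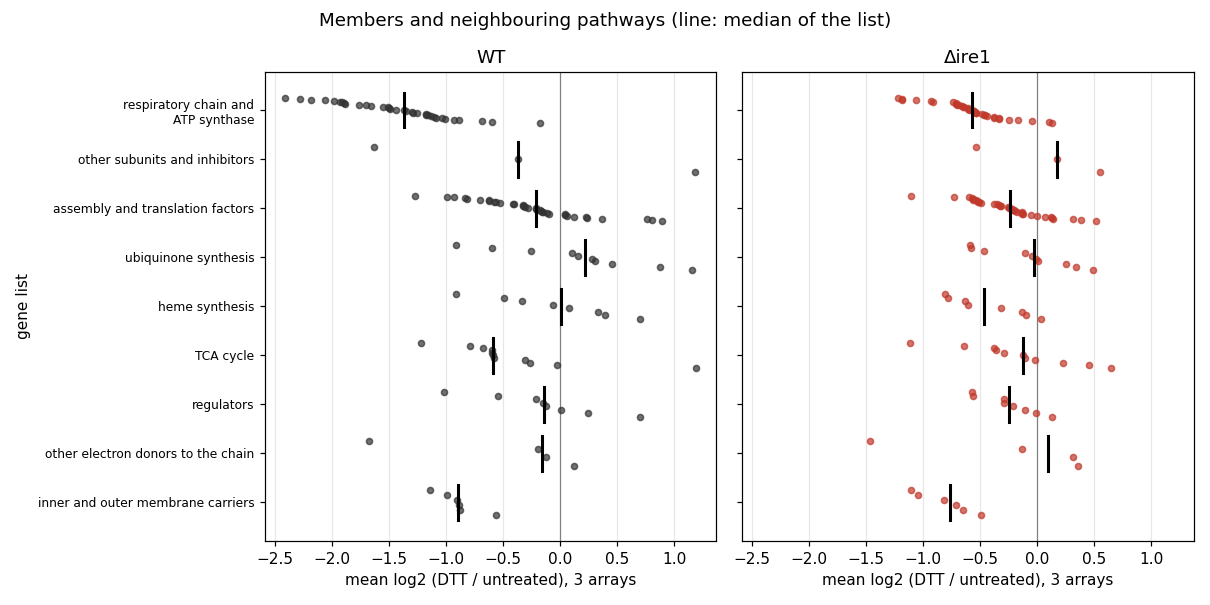
Mean log2 ratio over 3 arrays (x axis) of the 35 members and of the genes of each other list (rows, 1 point per gene, with the median of the list as a line) in WT and Δ*ire1*. The members lie between −2.41 and −0.18 in WT, with a median of −1.36, whereas the medians of the other lists lie between −0.90 and 0.22.

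Heme synthesis genes, which supply the cofactor of complexes III and IV and of cytochrome *c*, changed in both directions in WT. Of 8 genes, 3 rose and 3 fell there, against 18.4% and 39.0% of all elements. From WT, 3 of 8 differed in Δ*ire1*, all lower (*HEM12*, *HEM13*, and *HEM15*), against 11.3% of all elements. *HEM12* lost its call in 2 of 12 fits that left out 1 array (adjusted p up to 0.0717). In Δ*gcn4* *HEM13* was lower than in WT, and in Δ*gcn2* *HEM13* was lower and *HEM15* higher, the latter lost in 4 of 12 fits (up to 0.146). *HEM15*, ferrochelatase, was at 0.39, 0.71, and 1.01 on the WT arrays, −0.82, −0.75, and −0.34 on the Δ*ire1* arrays, 0.81, 1.01, and 1.21 on the Δ*gcn4* arrays, and 1.17, 1.34, and 1.42 on the Δ*gcn2* arrays. It rose in every strain but Δ*ire1*, where it fell, and the Δ*ire1* arrays did not overlap with those of any other strain. *HEM13*, coproporphyrinogen oxidase, a gene known to be induced under low oxygen and low heme, was at 0.29, 0.47, and 0.23 on the WT arrays, −1.13, −0.72, and −0.51 on the Δ*ire1* arrays, −1.08, −0.41, and −0.73 on the Δ*gcn4* arrays, and −0.80, −0.72, and −0.67 on the Δ*gcn2* arrays. *HEM13* rose slightly in WT and fell in all 3 deletion strains, with differences from WT of −1.12 (SE 0.18, adjusted p = 0.000598), −1.07 (SE 0.18, adjusted p = 0.00267), and −1.06 (SE 0.18, adjusted p = 0.00203) in Δ*ire1*, Δ*gcn4*, and Δ*gcn2*. Its rise in WT did not pass without any 1 of the WT arrays (adjusted p from 0.0588 to 0.189), whereas the 3 differences passed in all 12 fits that left out 1 array. *HEM3*, porphobilinogen deaminase, fell by 0.91 in WT.

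The known regulators of these genes changed in different directions. *HAP4*, the activating subunit of the Hap2/3/4/5 complex, was at −0.93, −1.23, and −0.90 on the WT arrays, −0.64, −0.54, and −0.53 on the Δ*ire1* arrays, −0.53, −0.94, and −1.21 on the Δ*gcn4* arrays, and −1.55, −1.70, and −1.45 on the Δ*gcn2* arrays. It fell in all strains. In Δ*gcn2* *HAP4* fell more than in WT, by 0.54 (SE 0.16, adjusted p = 0.0345) on the log2 scale. That call was lost with all arrays scaled to 1 spread (adjusted p = 0.125) and without WT replicate 1 or 3 or any of the 3 Δ*gcn2* arrays (up to 0.124). In Δ*ire1* the difference of *HAP4* from WT was 0.45 (SE 0.16, adjusted p = 0.06). A link between *HAP4* mRNA and the ratios of the members was not tested. *HAP2*, *HAP3*, and *HAP5*, the DNA-binding subunits, had means between −0.15 and 0.01 in WT and did not pass there.

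*HAP1*, the heme-dependent activator, was at 0.60, 0.67, and 0.83 on the WT arrays, 0.16, −0.56, and −0.47 on the Δ*ire1* arrays, 0.31, 0.70, and 0.68 on the Δ*gcn4* arrays, and 0.65, 0.77, and 0.66 on the Δ*gcn2* arrays. It rose in WT, Δ*gcn4*, and Δ*gcn2*, and Δ*ire1* was below WT by 0.99 (SE 0.18, adjusted p = 0.00129) on the log2 scale. *ROX1*, the repressor of hypoxic genes, averaged −0.54 ± 0.06 for WT, −0.29 ± 0.25 for Δ*ire1*, −1.09 ± 0.64 for Δ*gcn4*, and −0.35 ± 0.21 for Δ*gcn2*. *MOT3*, which represses with Rox1, averaged 0.24 ± 0.03 for WT, −0.21 ± 0.19 for Δ*ire1*, 0.44 ± 0.12 for Δ*gcn4*, and 0.40 ± 0.15 for Δ*gcn2*. *MIG1*, the glucose repressor, averaged −0.21 ± 0.15 for WT, −0.56 ± 0.20 for Δ*ire1*, −0.20 ± 0.25 for Δ*gcn4*, and −0.44 ± 0.16 for Δ*gcn2*. *ROX1* fell in WT and Δ*gcn4*, in WT not without replicate 1 or 3 (adjusted p = 0.0549 and 0.055). *MIG1* fell in Δ*ire1* and Δ*gcn2*, while *MOT3* rose in all strains but Δ*ire1*. The rise of *MOT3* in WT was lost without any 1 of 5 arrays (adjusted p up to 0.136).

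**Figure D5:**
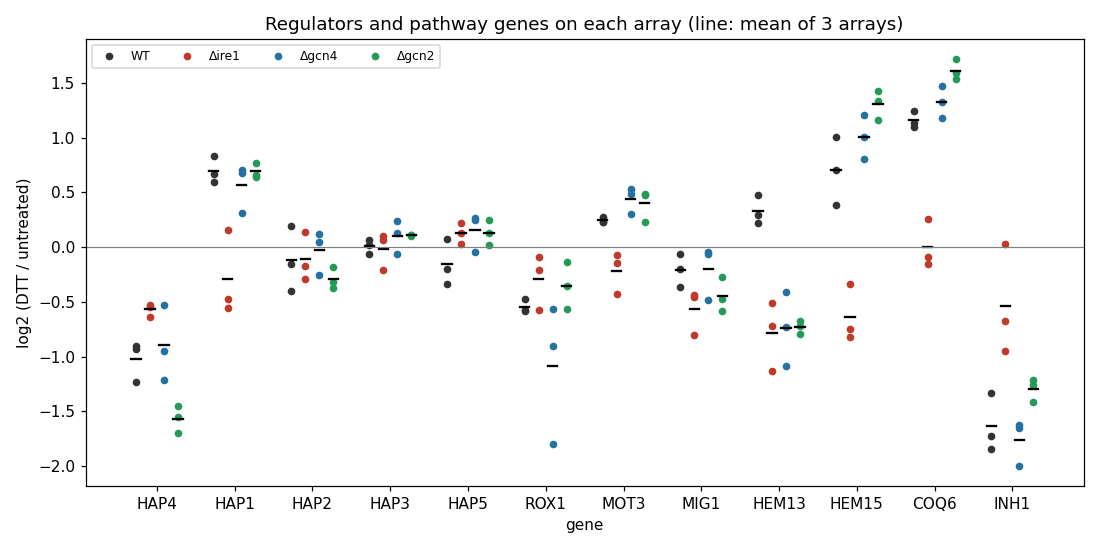
Log2 ratio (y axis) of the 8 regulators, of 2 heme synthesis genes, and of *COQ6* and *INH1* on each array (points, colored by strain), with the mean of 3 arrays as a line. *HAP4* is below 0 on all 12 arrays and lowest in Δ*gcn2*, whereas *HAP1*, *HEM15*, and *COQ6* are above 0 on all arrays of WT, Δ*gcn4*, and Δ*gcn2*.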

How the data were processed

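The authors deposited log2 ratios of DTT-treated over untreated cells, 1 column per array, with 3 decimals and no missing value for 6024 elements. Their text names no normalization, and signal intensities were not used here, so background and depth are unknown, and precision is set by how many arrays there are. Gene symbols came from the platform annotation and the RefSeq gene table. Of the elements, 5432 carry 1 symbol. Neither the members nor the lists were chosen blind: earlier results of these data were known. Named with values on every array were, in each complex, the lowest and highest mean in WT. So were the 6 largest differences that passed in each comparison of strains, the pairs of isoenzymes, and, of the regulators, *HAP4* and *HAP1*. The other regulators were given as means in the text. Of other lists, up to 3 genes with the largest changes in WT were named by rule, and further genes where a comparison of strains passed. *INH1*, *NDE2*, *COQ6*, *HEM13*, *HEM15*, and *CYB5* were given in more detail after their values were seen.

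Linear models with a mean for each strain were fitted to all 12 arrays with limma 3.58.1 in R 4.3.3, with moderated variances (15.5 degrees of freedom). P-values were adjusted for the 6024 elements tested (Benjamini-Hochberg). No block was used in the model. Same-numbered arrays of WT and Δ*gcn2* deviated together from their strain means (correlations over elements of 0.574, 0.625, and 0.661). Their numbers were taken as pairs in the block fits and not in the model above. The correlations were smaller but also above 0 between WT and Δ*gcn4* (0.0823, 0.276, and 0.293) and between Δ*gcn4* and Δ*gcn2* (0.0787, 0.244, and 0.262). Between Δ*ire1* and each other strain, some or all were below 0. WT replicate 1 carries no number in its label and was numbered by elimination. The study describes 3 independent experiments. The alternatives were centering, scaling, array weights, a replicate block, only the arrays compared, and leaving out each array. The fit was checked on simulated arrays. No promoter sequence was used here.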

Additional observations from a re-analysis of the deposited data

Results flagged for a closer look

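Each result given here is a difference between strains in the change upon DTT treatment, tested directly (limma, adjusted p under 0.05). No explanation was tested. Groups of 3 arrays are too small for a test of single outlying values.

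Between Δ*ire1* and WT, the log2 ratios of 29 members differed, all with a smaller fall in Δ*ire1*. Cytochrome *c* differed by 1.19 for *CYC1* and 1.46 for *CYC7*. Complex III differed by 1.00 for *CYT1*, 1.03 for *RIP1*, 0.58 for *COR1*, 1.34 for *QCR6*, 1.40 for *QCR7*, 0.98 for *QCR8*, 1.22 for *QCR9*, and 1.35 for *QCR10*. Complex IV differed by 0.75 for *COX4*, 1.20 for *COX5A*, 0.66 for *COX6*, 0.80 for *COX7*, 0.74 for *COX8*, 0.59 for *COX9*, and 0.83 for *COX13*. Complex II differed by 0.92 for *SDH2*, 0.75 for *SDH3*, and 0.61 for *SDH4*. The NADH dehydrogenases differed by 1.19 for *NDE1*. The F1 part of the ATP synthase differed by 0.75 for *ATP3*, 0.68 for *ATP15*, and 0.90 for *ATP16*. Its stalk and membrane part differed by 0.51 for *ATP4*, 0.84 for *ATP5*, 1.09 for *ATP14*, 0.54 for *ATP17*, and 1.10 for *ATP20*. For all but *COX9*, *SDH4*, *ATP4*, *SDH2*, *COR1*, and *ATP17* the call held in every fit that left out 1 array.

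Between Δ*gcn2* and WT, 11 members differed, all with a smaller fall in Δ*gcn2*. The differences were 0.80 for *CYT1*, 0.49 for *QCR6*, 0.68 for *QCR8*, 1.14 for *QCR10*, 0.61 for *COX5A*, 0.50 for *COX6*, 0.53 for *COX8*, 0.74 for *COX13*, 1.02 for *SDH2*, 0.79 for *SDH3*, and 0.83 for *SDH4*. Leaving out 1 array of either strain gave 4 to 9 calls over all 35 members. Between Δ*gcn4* and Δ*gcn2*, the difference was −0.81 for *QCR8* and −0.65 for *COX5A*, against 4.45% of all elements lower and 1.88% higher. Neither call held in every fit that left out 1 array.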

How the results depend on the processing

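With all 12 arrays, the counts of members that fell in each of the 4 strains, of those that differed between Δ*ire1* and WT or among the strains, and the count of 0 between Δ*gcn4* and WT stayed within 1.5 times under every alternative. No called member changed sign. With 1 array left out, the members that fell numbered 33 to 34 (WT), 21 to 31 (Δ*ire1*), 32 to 35 (Δ*gcn4*), and 30 to 33 (Δ*gcn2*), and 24 to 31 had a smaller fall in Δ*ire1* than in WT. The median in WT moved from −1.36 to −1.22 with each array centered on its median and to −1.19 with scaling to one spread, and ranged from −1.47 to −1.36 with 1 array left out. In Δ*gcn2* it moved from −1.02 to −0.91 and −0.78. The median difference between Δ*gcn2* and WT moved from 0.41 to 0.48 with scaling. The count of members above WT in Δ*gcn2* was 11, and 19 with array weights, for which no share of all elements is given here. It was 24 with the replicate block on the arrays of these 2 strains (30.5% of all elements) and 11 with the block on all 12 arrays. With 1 array left out it was 4 to 14. Of the 11, *QCR6* and *COX6* did not pass with centered arrays (limma, adjusted p = 0.0509 and 0.0557). With scaled arrays *COX6* did not pass (0.0596). Between Δ*gcn4* and Δ*gcn2* 2 members differed, 1 with centered arrays, 8 with array weights, 5 with only the arrays compared, and 0 to 5 with 1 array left out. The replicate block changed no other count by over 1.5 times. The cause of these shifts was not tested. The array weights were lowest for Δ*ire1* replicate 3 and Δ*gcn4* replicate 1 (0.380 and 0.416). A search of promoter motifs was planned and not run, since no promoter sequence was used here.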

Other observations

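In the comparison of Δ*ire1* with WT, 4 of the 37 assembly and translation factors were lower and 5 were higher, against 11.3% and 10.9% of all elements. The 4 lower ones are described here as values. *COX18* and *OXA1* encode proteins that insert subunits into the inner membrane. *COX18* averaged 0.37 ± 0.16 for WT, −0.38 ± 0.15 for Δ*ire1*, 0.83 ± 0.08 for Δ*gcn4*, and 1.08 ± 0.14 for Δ*gcn2*. *OXA1* averaged −0.28 ± 0.35 for WT, −1.10 ± 0.43 for Δ*ire1*, 0.22 ± 0.29 for Δ*gcn4*, and 0.29 ± 0.22 for Δ*gcn2*. *SCO1*, a copper chaperone of complex IV, averaged 0.76 ± 0.24 for WT, −0.13 ± 0.48 for Δ*ire1*, 0.65 ± 0.56 for Δ*gcn4*, and 1.13 ± 0.09 for Δ*gcn2*, and *PET122*, an activator of the translation of a mitochondrial complex IV mRNA, averaged 0.23 ± 0.45 for WT, −0.73 ± 0.16 for Δ*ire1*, 0.32 ± 0.24 for Δ*gcn4*, and 0.59 ± 0.33 for Δ*gcn2*. In Δ*ire1* all 4 lay below WT, by 0.75, 0.82, 0.89, and 0.96 on the log2 scale (limma, adjusted p = 0.00147, 0.0171, 0.0212, and 0.00551). The calls of *OXA1* and *SCO1* were lost without Δ*ire1* replicate 1 or 2 or WT replicate 2 (adjusted p up to 0.0853 and 0.0957). The 5 higher ones were *PET54*, *ATP23*, *CBP4*, *CBP6*, and *COX15*, of which the last 2 were lost with 1 of 4 arrays left out (up to 0.0974 and 0.0953). These genes were chosen after their values were seen.

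The carriers *PET9*, *AAC1*, and *AAC3* encode ADP/ATP carriers of similar sequence. *AAC3*, the form expressed under low oxygen, averaged −0.88 ± 0.34 for WT, −1.04 ± 0.31 for Δ*ire1*, −0.43 ± 0.19 for Δ*gcn4*, and −1.40 ± 0.19 for Δ*gcn2* and differed between Δ*gcn4* and Δ*gcn2* by 0.97 (SE 0.19, adjusted p = 0.0125), a call lost without Δ*gcn4* replicate 2 or Δ*gcn2* replicate 3 (0.0526 and 0.0812). *CYB5* fell in WT and Δ*ire1* to −1.67 and −1.47, and less in Δ*gcn4* and Δ*gcn2*, to −0.64 and −0.51, with differences from WT of 1.03 (SE 0.21, adjusted p = 0.0122) and 1.16 (SE 0.21, adjusted p = 0.00318). The first was lost without Δ*gcn4* replicate 1 or WT replicate 1 (0.0544 and 0.0800). The element of *GCN4* itself averaged −0.83 ± 0.15 on the Δ*gcn4* arrays and −0.59 ± 0.07 on those of WT. In Δ*gcn4* the gene was replaced by a marker, so the value there is not a fall of *GCN4* mRNA. It still passed the test against no change (limma, adjusted p = 4.34e-06), and what gave the signal was not tested.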
